A study of Brassica napus with 23 samples.

Results

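A set of 150 genes of Brassica napus was examined whose counts in roots were lower 24 h after treatment with the bacterium Pseudomonas chlororaphis PA23 than in control roots. The set was taken from 101040 genes by a rule on the root libraries with at least 2.0 M counts (M, mega). Levels were CPM, a gene's count scaled to its library's total count and given per M counts. A gene had to average 5 to 300 CPM in control roots at 24 h, and to lie below both control libraries in every PA23 library at 24 h. Its log2 ratio of 7 d to 24 h controls had to stay within 0.5 of 0, and its log2 ratio of PA23 to control at 24 h had to be below -0.5, with 0.5 CPM added to each mean. These limits were passed by 1584 genes, and the members are the 150 chosen by the lowest PA23 to control ratio. Without the requirements on PA23, 27319 genes passed the limits on control level and time, and the 27169 that are not members serve as comparison genes.

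Brassica napus, oilseed rape, carries 2 subgenomes, A and C, inherited from its parent species, so many of its genes have near-identical copies. PA23 is a soil bacterium applied to crops to hold back fungal disease. Root-colonising pseudomonads release metabolites and surface molecules that root cells can perceive, and the responses can differ between the root, which meets the bacterium, and the shoot. The gene IDs of the counts carry no descriptions. Symbols of the RefSeq Da-Ae assembly matched 5 members (BnaC01g04100D, BnaC01g16190D, BnaC05g22220D, BnaC05g40230D and BnaC07g10040D) and 3347 of the 101040 IDs (3.31%), without a description, so no member is given a role here.

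The plants were treated with LB broth, which is the control, or with 15 mL of PA23 culture, and shoots and roots were collected 24 h or 7 d later. The labels of every library give treatment 7 d after planting and 14 d of growth, which fits the later harvest only, so plant age at 24 h is uncertain. The 23 libraries form 8 groups of 3, except control roots at 24 h with 2, numbered 2 and 3. The labels name no cultivar, and they do not say whether replicates are separate plants, so the spread and the p-values below may be partly technical. Library totals ran from 0.622 to 721 M counts (median 45.8 M). All 5 root libraries of 24 h entered the rule. Among the 7 d roots, control replicate 3 (0.622 M) and PA23 replicate 3 (1.0 M) fell under 2.0 M and did not enter the rule. Among the shoots, control and PA23 replicate 1 of 24 h (1.41 and 1.1 M) were under 2.0 M. So were control and PA23 replicate 2 of 7 d (1.7 and 0.883 M). Low counts were mostly even numbers, the pattern left when each mate of a pair adds a count, except in PA23 root 7 d replicate 1 (57.6% odd among counts of 1 to 10, against 18.9% to 33.6% elsewhere). The 200 genes most shoot-preferred in the 7 d controls summed to 65.7 to 376 CPM in 10 of the 11 root libraries, to 5020 CPM in PA23 root 7 d replicate 3, and to 151000 to 260000 CPM in shoots. Shoot PA23 7 d replicates 1 and 3 were closer to each other (median absolute log2 difference 0.0605 over genes with 1000 counts or more) than any other pair of a group (0.0911 to 0.588), but still differed beyond what paired mates would give (mean chi-square 3.04 per gene, where independent counts give 1 and paired mates 2), and were kept as separate libraries. The labels give these 2 the bracketed numbers 2-3 and 1-3, whose meaning is not stated, so whether they share plant material is not known.

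The members were lower with PA23 at 24 h, as chosen, and at 7 d their median levels in PA23 and control roots overlapped. The median member stood at 14.7 and 14.2 CPM in the control roots of 24 h and at 6.83, 7.77 and 7.56 CPM in the PA23 roots. At 7 d it stood at 13.9, 10.6 and 11.3 CPM in controls and at 11.9, 12.9 and 14.0 CPM with PA23. On this median the 24 h groups lie apart because the rule required it, and the 7 d groups overlap. The median of the comparison genes was 14.0 to 15.0 CPM in all root libraries. The members' summed level was 5081 and 4874 CPM in controls and 2381, 2624 and 2639 CPM with PA23 at 24 h. At 7 d it was 4265, 3715 and 3698 CPM in controls and 4328, 4934 and 4553 CPM with PA23. Unlike the medians, these 7 d sums did not overlap, and the PA23 roots were the higher. In a bulk sample, fewer cells of a type and less RNA per cell cannot be told apart.

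**Figure D1:**
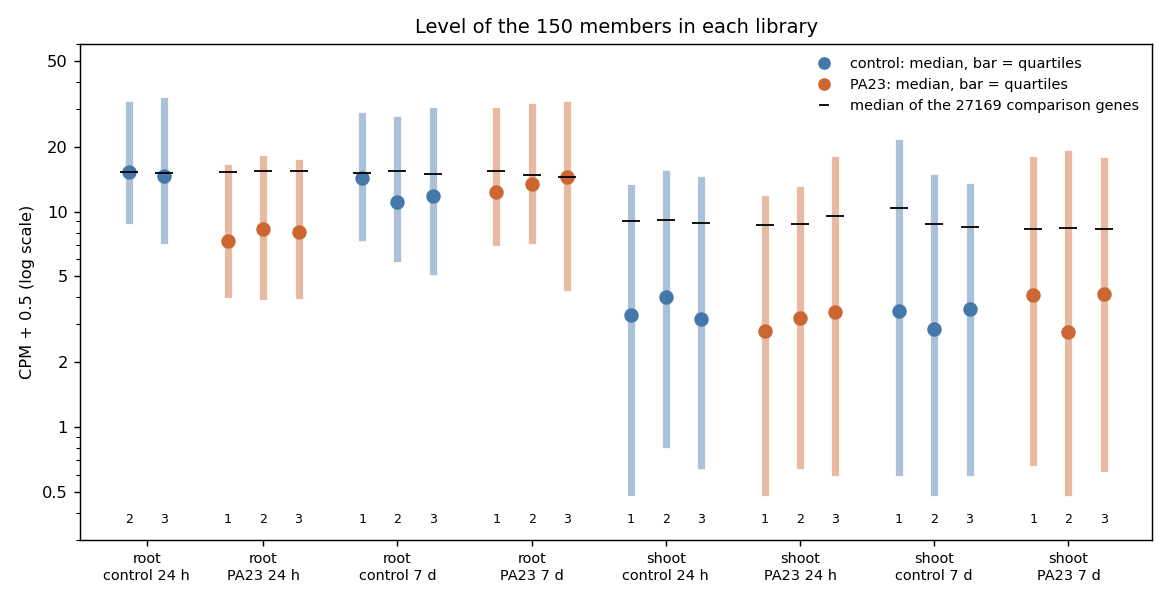
Level of the 150 members in each of the 23 libraries. Points are medians and bars quartiles over members of CPM + 0.5 on a log scale, black ticks the median of the 27169 comparison genes, and numbers above the axis the replicates. The members' medians in PA23 roots at 24 h (6.83 to 7.77 CPM) lie below those of all other root libraries (10.6 to 14.7 CPM), while the comparison genes stay at 14.0 to 15.0 CPM.

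The values that chose the members are given here as a description. The log2 ratio of PA23 to control at 24 h ran from -2.13 to -0.81 (median -0.90). The control mean was 2-fold or more above the PA23 mean in 48 members, 1.9 to 2-fold in 18 and less in 84. The last members inside the limit were BnaA04g26040D (-0.809), BnaC01g37530D (-0.807) and BnaC06g28890D (-0.806). The first genes outside were BnaA06g40680D (-0.806), BnaC04g21170D (-0.804) and BnaC06g29950D (-0.803), so the limit at 150 marks no gap. Over all 63551 root genes tested, edgeR called 77 lower (0.121%) and 93 higher (0.146%) with PA23 at 24 h at an adjusted p under 0.05, and 17 of the 150 members were among those called lower. The balance of lower to higher turned with some settings, to 399 and 254 with DESeq2 and 94 and 85 with RLE size factors. It was 3092 and 2574 with only the groups compared, and 165 and 121 without libraries under 2.0 M counts. It kept its direction with no filter (124 and 135), a replicate block (38 and 67) and a run covariate (55 and 71). Without PA23 replicate 1, 2 or 3 it was 63 and 82, 11 and 10, and 6 and 9. Leaving out a 24 h control would leave 1 library in that group, so the balance without either control is not given. The controls were within 1.5-fold of each other in 122 members. Control replicate 2 was at least 2-fold above replicate 3 in 7 members, and replicate 3 at least 2-fold above replicate 2 in 2.

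BnaA09g12700D (A09:6749260-6752567, plus strand) had the lowest ratio. It had 41.1 and 38.9 CPM in 24 h controls and 9.85, 7.47 and 8.88 CPM with PA23. At 7 d the controls had 22.8, 37.8 and 25.7 CPM and the PA23 roots 28.6, 10.4 and 23.9 CPM. The 24 h groups were far apart with little spread in either, and the 7 d groups overlapped. Coordinates are those of the count table; the sources used here do not give its genome build.

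BnaC07g40930D (C07:41028456-41030139) had the highest level among the 8 members with the lowest ratio. Its controls had 121 and 174 CPM and the PA23 roots 38.2, 31.0 and 34.2 CPM at 24 h. At 7 d the controls had 102, 179 and 132 CPM and the PA23 roots 146, 86.6 and 59.8 CPM. The PA23 values of 7 d were more scattered than those of 24 h and reached into the control range.

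In 3 of those 8 members the control replicates themselves were far apart. BnaCnng10670D had 9.38 and 2.41 CPM in controls and 0.909, 0.839 and 1.19 CPM with PA23 at 24 h. BnaA07g34560D had 9.84 and 1.58 CPM in controls and 1.07, 0.919 and 1.4 CPM with PA23. BnaA04g28870D had 11.4 and 5.01 CPM in controls and 1.58, 1.84 and 1.75 CPM with PA23. In each of the 3, control replicate 2 was the high one, and the size of the difference rests on it.

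The other 3 of the 8 had close controls or stayed clear of them. BnaC09g13020D had 37.3 and 37.9 CPM in controls and 12.7, 9.11 and 11.1 CPM with PA23 at 24 h. At 7 d the controls had 20.4, 33.1 and 25.7 CPM and the PA23 roots 24.5, 9.18 and 1.99 CPM. BnaA02g31730D had 6.5 and 4.25 CPM in controls and 1.6, 1.04 and 1.6 CPM with PA23 at 24 h, and its 7 d values, 3.91 to 6.54 CPM in controls and 5.19 to 6.72 CPM with PA23, overlapped. BnaC07g01480D had 27.3 and 28.4 CPM in controls and 6.25, 10.1 and 9.41 CPM with PA23 at 24 h.

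**Figure D2:**
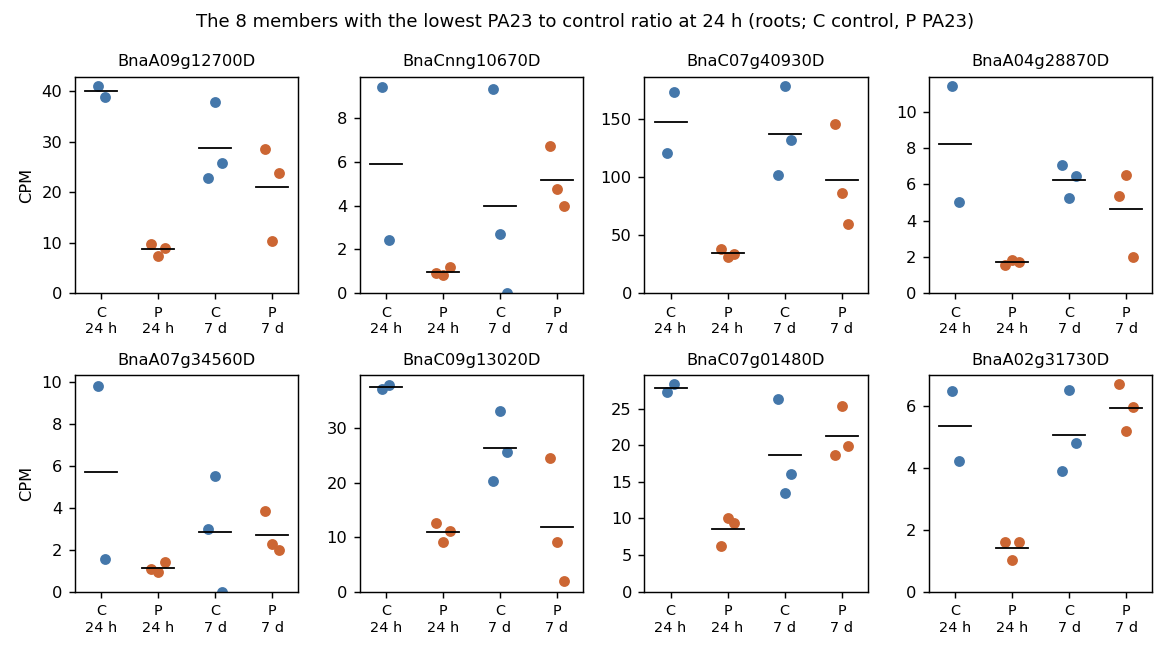
Root levels in CPM (linear axes from 0) of the 8 members with the lowest PA23 to control ratio at 24 h. Each point is a library and each line a group mean (C control, P PA23). The PA23 points of 24 h are below both controls in every panel, as the rule required, and at 7 d the groups overlap in all 8.

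The members highest in control roots were also set apart at 24 h, as chosen, at a smaller fold. BnaC01g19250D (C01:13321842-13323257) had 282 and 257 CPM in 24 h controls and 133, 154 and 161 CPM with PA23. At 7 d its controls had 227, 177 and 254 CPM and its PA23 roots 249, 267 and 307 CPM. BnaA02g14450D had 268 and 227 CPM against 121, 155 and 145 CPM at 24 h, and BnaA05g23590D had 252 and 244 CPM against 112, 158 and 150 CPM. At 7 d BnaA05g23590D had 202, 153 and 151 CPM in controls and 216, 264 and 221 CPM with PA23. These groups do not overlap, and the adjusted p was 0.676 (edgeR).

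The labelled absence of a time change held within the limit only. The members' log2 ratio of 7 d to 24 h controls had a median of -0.36 and was below 0 in 134 of the 150 (89.3%), against 50.1% of comparison genes. This ratio and the ratio that ranked the members share the 24 h controls.

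The 24 h root libraries came from runs that the labels name NS.1514.001 and NS.1522.001, and the values within each are given as a description. In the first run, PA23 replicate 1 against control replicate 3 gave a median log2 ratio of -0.99 over the members (comparison genes -0.03). In the second, PA23 replicates 2 and 3 against control replicate 2 gave -0.93 (comparison genes 0.01). The same 5 libraries chose the members, so the rule bears on both the direction and the size.

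The members were short genes. Their span, which in the count table runs from start to end and includes introns, had a median of 1220 bases, against 2360 for comparison genes, and 100 of the 150 (66.7%) were under 1500 bases, against 20.9%. Among the 1434 genes that passed every limit but ranked lower, 63.8% were that short. Only 11 members (7.33%) spanned 3000 bases or more. The rule did not use the span.

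Span moved with the PA23 difference over all 27319 genes. The median log2 ratio at 24 h was -0.273 for genes under 1000 bases, -0.097 for those from 1500 to under 2000 bases and 0.227 for 5000 bases or more. At 7 d the order was turned round, with 0.222, 0.08 and -0.179 for the same classes. The summed level of comparison genes under 1500 bases divided by that of genes of 3000 bases or more was 0.681 and 0.712 in 24 h controls and 0.493, 0.524 and 0.535 with PA23. At 7 d it was 0.674, 0.58 and 0.611 in controls and 0.691, 0.87 and 0.837 with PA23. The 3 PA23 libraries of 24 h were the lowest of all root libraries on this measure.

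The ratios were also taken relative to genes of like span. At 24 h, where the ratio chose the members, their median was -0.90 as chosen and -0.73 relative to span. At 7 d the median went from 0.17 to 0.01, with 78 members above and 72 below 0. Relative to span, all 150 members stayed below -0.5 (highest -0.54), among 749 genes past the limits so taken. Choosing members by the lowest span-relative ratio would keep 77 of the 150. The part of span, or of anything that moves with it, in the 24 h difference was not tested.

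**Figure D3:**
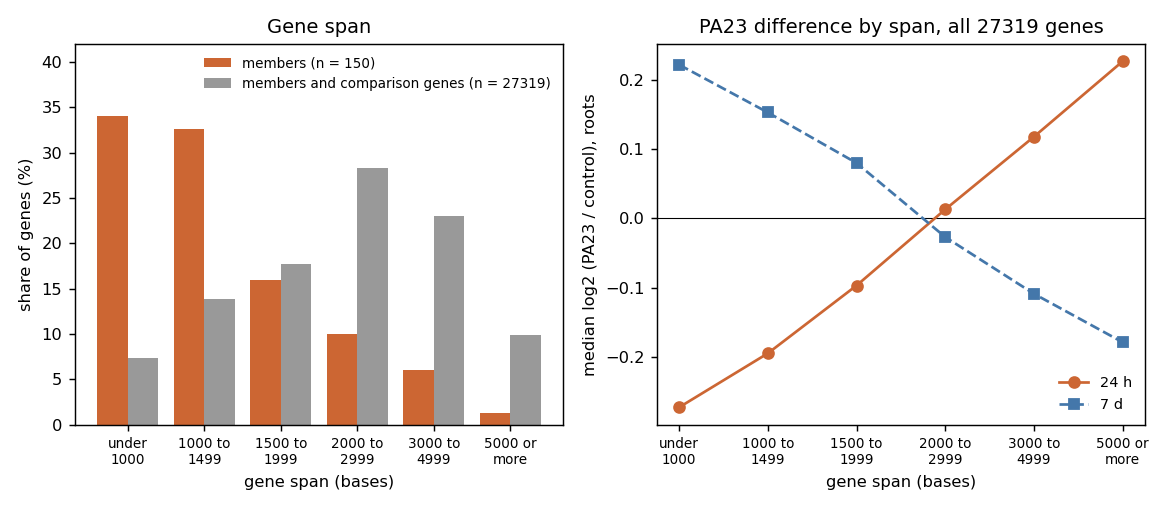
Left, share of genes (%) in 6 classes of gene span, in bases, for the 150 members and the 27319 genes within the limits on control level and time. Right, median log2 ratio of PA23 to control roots by span class over the 27319 genes at 24 h and 7 d. Members crowd into the classes under 1500 bases, and the lines of the 2 harvests cross, from -0.273 to 0.227 at 24 h and from 0.222 to -0.179 at 7 d.

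At 7 d, no member passed the test between PA23 and control roots. edgeR called 0 of 63551 root genes (0.0%), and DESeq2 186, of which 3 were members, all higher. At an unadjusted p under 0.05, edgeR had 4429 genes, among them 19 members higher and 4 lower. The members' median log2 fold change was 0.12 (100 above and 50 below 0), against 0.01 over all genes tested, and the lowest adjusted p of a member was 0.565 (edgeR). The 7 d controls entered the rule through the limit on time.

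The median moved with single libraries. Without 7 d control replicate 1 it was 0.39, and without replicate 2 it was 0.04. Without PA23 replicate 2 it was 0.05, and without PA23 replicate 3, the root library with 5020 CPM of shoot-preferred genes, it was 0.14. Within run NS.1522.001, PA23 replicate 1 against control replicate 2 gave 0.30, and PA23 replicates 1 and 3 gave 0.32. PA23 replicate 2 is labelled NS.1522.002. PA23 replicates 1 and 2 gave 0.39 against control replicate 2, and 0.04 against control replicate 1 of run NS.1514.001.

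In 17 members (11.3%) every PA23 root at 7 d lay above every control, against 6.83% of all genes tested, and in 5 members (3.33%) every PA23 root lay below, against 5.04%. Among the 1434 genes that passed every limit but ranked lower, 17.4% lay above and 0.837% below. Of all 63551 genes, 2.84% lay below every control at 24 h and above every control at 7 d, which is 13.0% of those below at 24 h. BnaCnng12640D was the highest of these, with 105, 111 and 67.5 CPM in controls and 134, 283 and 133 CPM with PA23 (log2 fold change 0.92, SE 0.32, adjusted p 0.648, edgeR). BnaA09g13030D was the lowest, with 9.65, 9.73 and 12.9 CPM in controls and 4.71, 2.5 and 1.99 CPM with PA23 (log2 fold change -1.53, SE 0.32, adjusted p 0.565, edgeR). Neither passed the test. As the rule fixed the 24 h side, all 5 members below every control at 7 d, BnaA09g13030D among them, were below at both harvests.

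Compared with the PA23 roots of 24 h, those of 7 d were higher for 147 of the 150 members (98.0%), in libraries of 2.0 M counts or more. The share was 98.4% of the genes that passed every limit but ranked lower, and 49.8% of comparison genes. The median log2 ratio was 0.79 over members and -0.0018 over comparison genes. The low 24 h values chose the members and the lower-ranked genes, so a return was built in for both. Against the 24 h controls, the PA23 roots of 7 d had a median log2 ratio of -0.12, with 38 members above and 112 below.

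**Figure D4:**
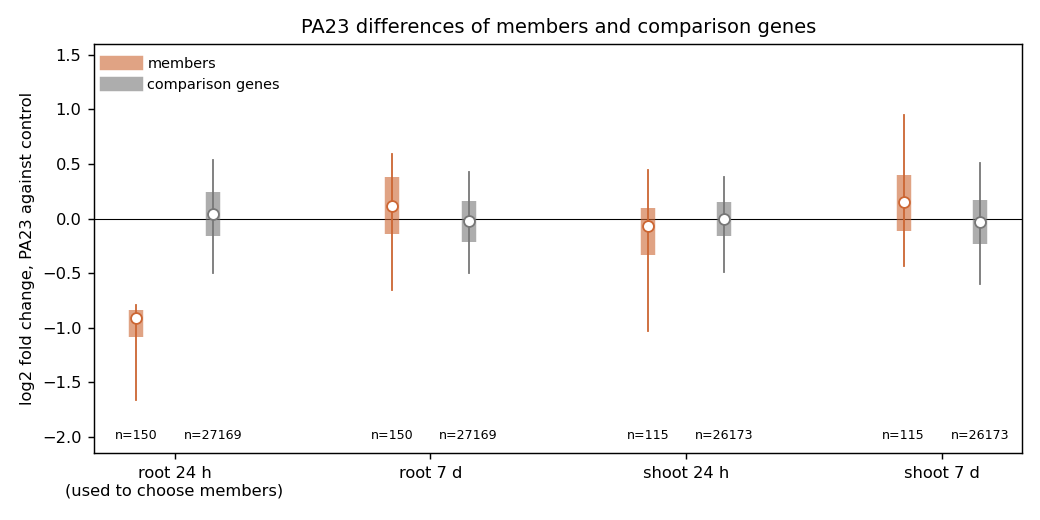
Log2 fold change (edgeR) of PA23 against control in the 4 comparisons, for members and comparison genes. Points are medians, boxes the quartiles and lines the 5th to 95th percentile, with the number of genes tested under each. The shift at root 24 h is how the members were chosen, and at root 7 d and in shoots the members' medians are -0.07 to 0.15.

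In shoots, no member passed the test between PA23 and control. At 24 h edgeR called 0 of 56654 genes (0.0%), DESeq2 also 0, and 586 genes had an unadjusted p under 0.05 by edgeR. Of the 150 members, 115 had enough counts to be tested, and 5 had an unadjusted p under 0.05, all lower. Of the 26173 comparison genes tested, 51 were higher and 87 lower at that threshold, and of 1369 lower-ranked genes 1 and 5. The members' median log2 fold change was -0.07 (all genes -0.01). At 7 d edgeR called 1 gene (0.00177%), not a member, and DESeq2 25, also none of them members. The members' median was then 0.15 (all genes -0.02), and 8 had an unadjusted p under 0.05, 7 of them higher. At that threshold 557 comparison genes were higher and 494 lower, and 59 and 11 of the lower-ranked genes. Without the close shoot PA23 replicate 1 the median was 0.06, and without replicate 3 it was 0.11. Without control replicate 1 it was 0.35. In 2 members every PA23 library lay below the controls in roots, as the rule required, and above them in shoots at 24 h. That is 1.74% of the 115 tested. Every PA23 shoot lay above in 3.5% of comparison genes and in 1.68% of the genes that passed every limit but ranked lower. Both directions held in 0.54% of the 52993 genes tested in both tissues, where the root direction was not fixed. In 1 member every PA23 shoot lay below the controls at 24 h and above them at 7 d, against 0.139% of the shoot genes tested.

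Many members were nearly silent in shoots, a measure taken from libraries the rule did not use. In control shoots of 24 h, 47 of the 150 (31.3%) had under 0.5 CPM, against 5.23% of comparison genes and 6.21% of the genes that passed every limit but ranked lower. At 7 d it was 48 (32.0%), against 5.93% of comparison genes. The libraries of 2.0 M counts or more were used for these shares, and 6 members had 0 counts in all 12 shoot libraries.

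Control roots and control shoots were tested in a joint fit. At 24 h, 80 members (53.3%) were higher in root, against 28.2% of all genes tested, 11 (7.33%) were lower, against 20.8%, and 59 were not called (edgeR). At 7 d, 73 (48.7%) were higher, against 30.1%, and 22 (14.7%) lower, against 23.9%. All genes include some below the root level that members had to reach. Of the comparison genes, 30.9% were higher and 12.7% lower at 24 h, and 31.7% and 16.6% at 7 d. Of the genes that passed every limit but ranked lower, it was 27.9% and 6.21% at 24 h, and 20.2% and 17.5% at 7 d. The median log2 fold change of the members was 1.28 at 24 h and 0.79 at 7 d. It was 0.20 and 0.09 over all genes, and 0.28 and 0.19 over comparison genes. The 24 h root controls also ranked the members, which favours genes high there.

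BnaC07g40930D, shown above among the 8 with the lowest ratio, had 0 counts in every shoot library. Its root level was at least 5810-fold higher than the control shoot limit at 24 h and at least 4920-fold higher at 7 d, where the limit is 3 counts over the shoot group (0.0254 and 0.028 CPM). BnaA05g25780D, with 56.2 and 70.2 CPM in 24 h control roots, was likewise at 0 in all shoots, and at least 2490-fold higher in root. BnaCnng27390D had 77.6 and 69.9 CPM in 24 h control roots and was at least 2910-fold higher there. These limits cover counting error only, and treat counts as independent. Low counts were mostly even, the pattern left when each mate of a pair adds a count. The limits would then lie higher and the folds lower.

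The reverse was seen in BnaCnng71670D, which had 9.98 ± 2.46 CPM (SD, n = 2) in control roots and 197 ± 12.5 CPM (n = 3) in control shoots at 24 h (log2 fold change -4.84, SE 0.30, adjusted p 1.44e-14, edgeR). At 7 d the log2 fold change was -4.89. BnaC01g03800D (-3.43) and BnaA04g25810D (-2.99) followed at 24 h.

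The members were also split by their shoot level, after the data were seen, and each class is described in roots at 7 d without a test. The 47 under 0.5 CPM had a median log2 ratio of PA23 to control of -0.12, with 15 above 0. The 103 others had 0.26, with 83 above 0. The same classes of comparison genes had -0.11 and 0.00, and those of the lower-ranked genes -0.07 and 0.26. Leaving out any 1 of the 4 libraries gave -0.25 to 0.02 for the first class and 0.09 to 0.54 for the second. With all 6 libraries the medians were -0.33 and 0.35.

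**Figure D5:**
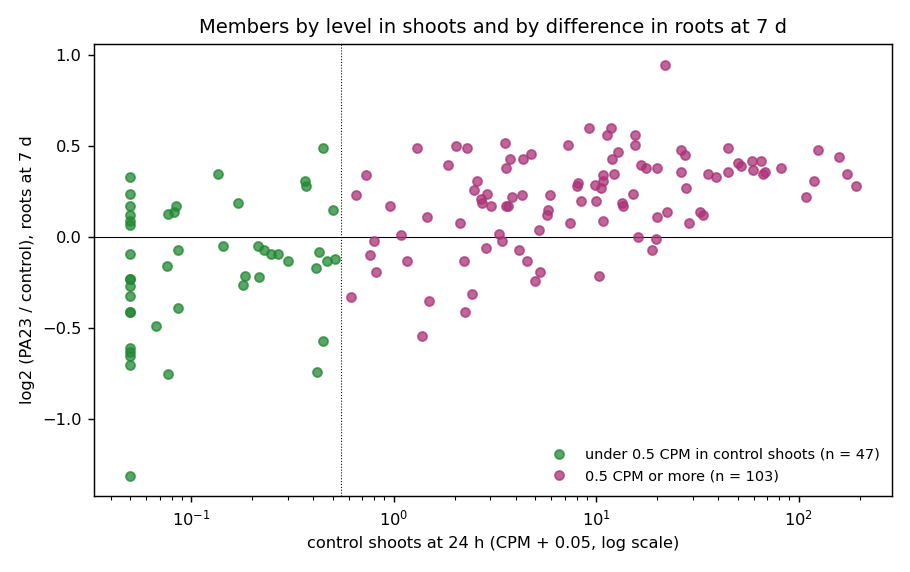
Each point is a member, by its level in control shoots at 24 h (CPM + 0.05, log axis) and its log2 ratio of PA23 to control in roots at 7 d. The dotted line marks 0.5 CPM. Of the 47 members left of it 15 lie above 0, and of the 103 others 83 do.

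With time in control shoots, 2 members rose and 1 fell (1.74% and 0.87% of the 115 tested), against 0.658% and 0.812% of all genes. BnaUnng05060D had 0.925 ± 0.437 CPM at 24 h and 33.9 ± 5.32 CPM at 7 d (SD, n = 3 each; log2 fold change 5.56, SE 0.42, adjusted p 5.22e-08, edgeR). BnaAnng35580D had 7.64 ± 0.80 CPM at 24 h and 124 ± 27.4 CPM at 7 d (log2 fold change 4.03, SE 0.28, adjusted p 1.13e-08, edgeR). The groups do not overlap in either. In control roots the log2 ratio of 7 d to 24 h, which the rule limited, was -0.35 for BnaUnng05060D and 0.06 for BnaAnng35580D. BnaC01g10100D went down, from 0.946 ± 0.519 CPM at 24 h to 0.0184 ± 0.0168 CPM at 7 d (log2 fold change -4.71, SE 1.04, adjusted p 0.0169, edgeR), near the limit of counting, and this call was lost when shoot control 24 h replicate 2, or 7 d replicate 1 or 3, was left out (adjusted p 0.154, 0.0565 and 0.0963).

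By position, 68 members (45.3%) lay in the A subgenome and 80 (53.3%) in the C subgenome, against 48.3% and 51.6% of comparison genes. Of these members, 5 lie on A and 13 on C sequence that is placed on no chromosome. Another 2 members lie on sequence placed in neither subgenome. Chromosome C01 held 15 (10.0%, against 3.96% of the genes within the control limits). Of these, 5 start between C01 positions 1944338 and 2226318, where the table has 52 genes, 29 of them within the control limits. This stretch was picked after the members were seen, and its ends are the first and last of their starts. No member's span overlaps another gene of the table. Reads of near-identical A and C copies may have been split between genes, and the sources used here do not say how such reads were assigned.

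Direct neighbours among the members were 2 pairs. BnaC07g01470D and BnaC07g01480D lie 1067 bases apart on C07. The first had 82.7 and 85.2 CPM in controls and 40.8, 51.3 and 48.6 CPM with PA23 at 24 h. BnaC08g43520D and BnaC08g43530D lie 223 bases apart on C08, and both stood above every control with PA23 at 7 d. BnaC08g43530D had 27.1 and 33.3 CPM in controls and 12.4, 13.0 and 11.9 CPM with PA23 at 24 h, and 22.4, 21.0 and 25.7 CPM in controls and 28.9, 32.0 and 43.9 CPM with PA23 at 7 d. Its neighbour had 11.7 CPM in both controls and 5.58, 5.67 and 6.88 CPM with PA23 at 24 h.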

How the data were processed

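Total RNA of Brassica napus roots and shoots was sequenced in 23 libraries. The authors deposited whole-number counts per gene, without scaling. Processing notes of the submitters name HISAT2 and DESeq2. Versions, build, annotation, strand setting and counting method are not given in the sources read. CPM are counts per M counts of the library. The members and lists were chosen with earlier results of these data known. Tests used the edgeR 4.0.16 robust quasi-likelihood fit in R 4.3.3 (filterByExpr, TMM, Benjamini-Hochberg adjusted p under 0.05 over all genes tested), with 1 fit per tissue over its 4 groups and a joint fit of all libraries for root against shoot. The SE is the log2 fold change divided by the square root of F. The steps were tested on simulated data. Named genes were the 8 lowest ratios, the 3 on each side of the limit, the 3 highest controls, up to 3 called members per direction and contrast, RefSeq-named members and adjacent members; the members with the largest 7 d differences without overlap, and those in the last part, were chosen after their values were seen. Gene lists by description could not be filled. Alternatives were DESeq2 1.42.0, RLE size factors, no filter, only the groups compared, a replicate block, a run covariate, no libraries under 2.0 M counts, each replicate left out and other settings of the rule.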

Additional observations from a re-analysis of the deposited data

Results flagged for a closer look

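In 17 of the 150 members every PA23 root library was below every control at 24 h and above every control at 7 d, against 1808 of the 13945 root genes that were below every control at 24 h (13.0%) and 250 of the 1434 genes that passed every limit but ranked lower (17.4%); the 24 h direction is fixed by the choice of members, and the difference between harvests was not tested. In 2 members, BnaA02g30210D and BnaA01g18740D, every PA23 library was below the controls in roots and above them in shoots at 24 h. That is 1.74% of the 115 members tested in shoots, and the root direction is fixed by the choice of members. Every PA23 shoot was above in 3.5% of comparison genes and in 1.68% of the lower-ranked genes. Both directions held in 286 of 52993 genes tested in both tissues (0.54%), and the difference was also not tested. BnaA02g30210D had 32.5 and 32.2 CPM in control roots and 14.5, 17.6 and 15.6 CPM in PA23 roots. It had 15.6, 16.9 and 16.1 CPM in control shoots and 21.9, 17.7 and 21.2 CPM in PA23 shoots. The first value of each shoot group comes from a library under 2.0 M counts, with 22 counts in the control and 24 with PA23. In 1 member, BnaA04g20520D, every PA23 shoot was below every control at 24 h (1.82, 2.85 and 2.98 against 9.91, 4.5 and 4.1 CPM). At 7 d every PA23 shoot was above every control (6.39, 7.93 and 6.26 against 4.21, 3.53 and 5.54 CPM). In the libraries under 2.0 M counts it had 2 (PA23) and 14 (control) counts at 24 h, and 7 and 6 at 7 d. Both directions held in 79 of 56654 genes (0.139%), and the difference was not tested.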

How the results depend on the processing

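No called value changed direction under the alternatives run, but medians near 0 did. The members' median for time in control shoots, -0.02, was 0.02 with RLE size factors and 0.09, 0.03 and 0.02 without 24 h control replicate 2, 7 d replicate 2 and 7 d replicate 3. The 7 d root median of members under 0.5 CPM in shoots, -0.12, was 0.02 without PA23 replicate 2. For members chosen otherwise, the 7 d root median, 0.12, was -0.05 with no time limit, and that for time in shoots 0.01 with a limit of 0.25. For roots at 24 h, 170 genes and 17 members were called. The counts were 653 and 48 with DESeq2, 259 and 26 without a filter, and 5666 and 134 with only the groups compared. They were 286 and 42 without libraries under 2.0 M counts, and 15 to 145 and 0 to 11 with a PA23 replicate left out. Same-numbered libraries deviated little together (correlations -0.117 to 0.141), and the main fits used no pairing. With 2 or 3 libraries per group, these correlations cannot settle whether the numbers pair samples. A replicate block gave 105 genes and 9 members for roots at 24 h, and 22 genes in shoots at 7 d. With it, the member that fell with time in shoots was lost (0).

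At 7 d in roots DESeq2 called 186 genes and 3 members higher, and leaving out a replicate gave 0 to 548 genes (548 without PA23 replicate 1, 81 without control replicate 2), 0 to 2 members lower and medians of 0.04 to 0.39. In the members with 0.5 CPM or more in shoots the 7 d median was 0.09 to 0.54. In shoots at 24 h, 1 gene was called without a filter, and 0 to 1 with a replicate left out. In shoots at 7 d, 25 were called by DESeq2, 14 without a filter, 0 without libraries under 2.0 M, and 0 to 737 with a replicate left out (737 without control replicate 1), with 0 to 1 members lower. Members lower in root than shoot at 7 d were 13 with only the groups compared. With a replicate left out, the 7 d median of root over shoot was 0.45 to 0.89. For time in shoots 224 to 1946 genes and 0 to 2 members lower were called, with medians of -0.30 to 0.09; without libraries under 2.0 M, 0 members were lower.

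Membership depended on the rule. Of the 150, 87 were shared with all root libraries in the rule, 44 with a time limit of 0.25, 30 with no time limit, 77 with span-relative ratios and 69 to 128 with a library left out (69 without 24 h control replicate 3 or 7 d control replicate 2). The 24 h root median of members so chosen was -0.81 for 300 members, -0.74 for the limit of 0.25, -1.44 for no limit and -0.81 for span. The root over shoot median at 24 h was 0.84 with a pseudocount of 2 CPM, 1.00 with all libraries, 2.22 with 100 members, 0.58 with 300, 1.08 with the 0.25 limit, 4.29 with no limit, 0.70 with span and 0.76 to 2.22 with a library left out. At 7 d it was 0.26, 0.43, 1.56, 0.16, 3.63 (no limit) and 0.36 (span), and 0.02 to 2.09 with a library left out. With no time limit the median for time in shoots was -0.38. The causes were not tested. In libraries under 2.0 M counts, a gene at 1 CPM has at most 2 counts, which limits low members there.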
